A study of Mus musculus with 2 samples.

Results

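The distal DNase I-hypersensitive sites with the strongest signal in both libraries of newborn mouse midbrain numbered 4850 of 50058 shared distal sites (9.69%), and of 73037 shared regions and 254609 merged regions in all on the autosomes. Overlapping peaks of the 2 libraries were merged, and a region with peaks from both was kept when its midpoint lay more than 500 bp from every annotated transcription start site (TSS) and outside coding exons, and its highest peak signal reached 92 in replicate 1 and 37 in replicate 2. The members were thus chosen by the measured signal, and their signal is given below as a description without a test. The tissue was whole midbrain of B6NCrl mice on postnatal day 0, with males and females pooled, and the labels place both libraries in 1 group, with no treatment and no genotype to compare. Each library carries its own biosample and a biological replicate number, but both lead back to a single donor entry, and nothing states that the animals were separate. The difference between the libraries may therefore be technical in part. Whole tissue holds many cell types, so a strong site in a few cells and a weaker site in many cannot be told apart.

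DNase I cuts DNA where nucleosomes are displaced, and such hypersensitive sites mark promoters, enhancers and insulators. Away from promoters, many of the sites that are open in nearly every cell type are bound by CTCF, a zinc finger protein that stops cohesin as it extrudes chromatin loops and so sets loop anchors and insulator boundaries. Enhancers carry clusters of motifs for the transcription factors of their own cell type, such as homeodomain, bHLH, SOX and nuclear factor I (NFI) proteins in the brain, and RFX proteins, which bind X-box motifs, control the genes of cilia. CpG islands are stretches that keep their CpG dinucleotides, are usually unmethylated, and are bound by GC-box factors of the SP and KLF families and by factors such as NRF1, CREB and NFY.

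Sequence was not used to choose the members, and 3 classes of sequence cover them. A CTCF motif (the core consensus with at most 1 mismatch, on either strand, in the 150 bp about the midpoint) was held by 2082 members, 42.9%. A further 718 members (14.8%) had no CTCF motif but were CpG-rich, with a GC content of at least 50% and an observed to expected CpG ratio of at least 0.6 over 300 bp. The other 2050 members (42.3%) were neither. The windows below show these classes as the letters of mm10 (GRCm38, the copy held by RefSeq), plus strand, 5′ to 3′. They are the highest-ranked printable members of each class, ranked by the lower of the percentile ranks in both libraries, and members in untranslated regions were passed over.

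In the CTCF class, capitals mark the motif match. The first window, in an intron of the noncoding gene 1700063D05Rik at chr9:41207556-41207705, had a signal of 137 in replicate 1 and 77 in replicate 2. The second, at chr7:101310766-101310915 and 6245 bp from the TSS of Stard10, had 133 and 75. The windows named for Gm47711 (chr13:37312666-37312815, 123 and 64) and AC165153.2 (chr17:88255856-88256005, 122 and 64) were chosen after their values were seen. They show the strongest CTCF members outside untranslated regions and over 10000 bp from any TSS of GENCODE. Stard10 was likewise taken after the values were seen, in place of a window in a 5′ untranslated region of Alcam. The regions of 1700063D05Rik, Stard10 and AC165153.2 are also CpG-rich, as only 128 of the 2082 CTCF members (6.15%) are. In these windows the match starts at base 17, 25 and 24, away from the midpoint. By contrast, 86.9% of CTCF members have the motif centre within 40 bp of it. Matches to other motifs, such as NRF1 in the first window, are not in capitals.
1700063D05Rik: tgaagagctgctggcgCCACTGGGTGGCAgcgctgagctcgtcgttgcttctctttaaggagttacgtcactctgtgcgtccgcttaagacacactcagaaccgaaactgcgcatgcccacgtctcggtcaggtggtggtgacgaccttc
Stard10: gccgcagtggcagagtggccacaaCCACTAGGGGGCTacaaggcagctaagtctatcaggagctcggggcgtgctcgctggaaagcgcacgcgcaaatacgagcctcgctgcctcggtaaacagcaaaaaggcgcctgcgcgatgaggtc
Gm47711: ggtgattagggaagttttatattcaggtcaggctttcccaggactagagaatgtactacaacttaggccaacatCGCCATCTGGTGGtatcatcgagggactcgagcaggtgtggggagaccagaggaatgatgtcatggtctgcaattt
AC165153.2: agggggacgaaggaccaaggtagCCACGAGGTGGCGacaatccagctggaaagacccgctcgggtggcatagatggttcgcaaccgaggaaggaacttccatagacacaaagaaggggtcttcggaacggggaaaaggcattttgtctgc

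In the CpG-rich class the leading windows lay near Ski (chr4:155223256-155223405, signals of 143 and 82), a repressor of TGF-beta signalling, and Fbxw7 (chr3:84814466-84814615, 142 and 93), a ubiquitin ligase subunit. The Fbxw7 region lies 108 bp from a transcript start in RefSeq, an annotation that the rule did not use. The Ski window holds 21 CpG dinucleotides in its 150 bp and no match to any of the 27 motifs searched. In the Fbxw7 window capitals mark a GC box, the SP/KLF motif GGGGCGGG read on the minus strand. The related form GGGCGGGG, also in this window, was not among the motifs searched and is not in capitals.
Ski: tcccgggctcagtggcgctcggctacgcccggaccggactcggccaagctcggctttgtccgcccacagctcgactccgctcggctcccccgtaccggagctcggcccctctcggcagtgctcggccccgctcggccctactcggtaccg
Fbxw7: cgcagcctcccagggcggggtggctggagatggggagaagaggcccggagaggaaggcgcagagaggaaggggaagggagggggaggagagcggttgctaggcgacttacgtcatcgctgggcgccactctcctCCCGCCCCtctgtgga

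In the class with neither feature, the leading windows lay near Fbrs (chr7:127477966-127478115, signals of 142 and 78) and in an intron of Elovl6, a fatty acid elongase, where the nearest TSS belongs to Gm43072 (chr3:129536316-129536465, 141 and 76). The Fbrs region lies 374 bp from a RefSeq start. Its window held none of the motifs as searched, and its 300 bp missed the CpG limit with a ratio of 0.555. The window does hold GGGCGGGG, a form of the GC box that the SP/KLF motif as searched does not match. In the Gm43072 window capitals mark the CCAAT box of NFY (CCAATNNG) and the palindromic cAMP response element of CREB (TGACGTCA).
Fbrs: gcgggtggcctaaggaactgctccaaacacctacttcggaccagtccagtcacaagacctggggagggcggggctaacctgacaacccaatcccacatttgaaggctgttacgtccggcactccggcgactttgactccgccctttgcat
Gm43072: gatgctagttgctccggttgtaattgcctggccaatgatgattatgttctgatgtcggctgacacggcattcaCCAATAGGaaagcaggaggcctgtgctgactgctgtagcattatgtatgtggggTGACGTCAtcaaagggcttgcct

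A last pair, chosen after their values were seen, shows RFX motifs more than 10000 bp from any TSS of GENCODE, with the match in capitals. The window near Gm45124 (chr7:44405776-44405925, signals of 137 and 81) is of the class with neither feature, and that near Gm25888 (chr12:86824006-86824155, 136 and 72) is CpG-rich and lies 2678 bp from a start in RefSeq.
Gm45124: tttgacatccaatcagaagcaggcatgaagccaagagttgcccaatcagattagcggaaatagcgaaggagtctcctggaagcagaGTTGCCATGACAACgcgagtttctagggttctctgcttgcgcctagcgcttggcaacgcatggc
Gm25888: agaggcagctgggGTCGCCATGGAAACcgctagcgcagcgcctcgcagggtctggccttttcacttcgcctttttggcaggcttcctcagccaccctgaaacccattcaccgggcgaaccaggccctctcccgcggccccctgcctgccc

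The deposited signal is a whole number per 150 bp peak that was not scaled between the libraries, so the libraries are compared by rank only. In replicate 1 the members ranged from 92 to 147 with a median of 104 (quartiles 97 and 113), against a median of 64 in the other 45208 shared distal regions. In replicate 2 they ranged from 37 to 93 with a median of 48 (quartiles 42 and 55), against 20. Each threshold alone was passed by nearly the same share of shared distal regions, 9109 (18.2%) in replicate 1 and 8879 (17.7%) in replicate 2. The overlap of the passing lists was 53.2% of the first and 54.6% of the second. Shared promoter regions, within 500 bp of a TSS, passed both thresholds more often, with 10380 of 21680 (47.9%). Across regions the signals of the libraries had a Spearman rank correlation of 0.379 over the 4850 members, whose range the thresholds cut short, 0.561 over the other shared distal regions and 0.908 over shared promoters. The points share their libraries and depth, and the coefficients are descriptions.

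**Figure D1:**
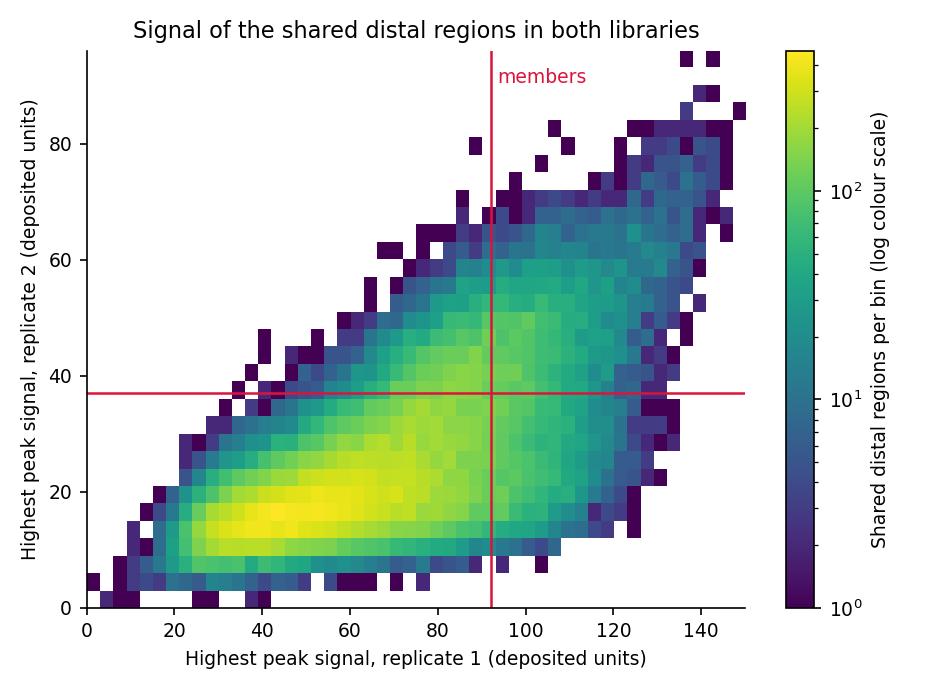
Highest peak signal in replicate 1 (x axis) and replicate 2 (y axis), both in the deposited units, for the 50058 shared distal regions counted in square bins with a logarithmic colour scale. Red lines mark the thresholds of 92 and 37, and the 4850 members fill the upper right corner, up to 147 and 93.

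The members just inside the thresholds had 92 and 37, next to Gm49450, Gpr84 and Oma1, and only the Gpr84 region of these held a CTCF motif. Just outside were regions with 124 and 36 next to 4930432O09Rik and Rbm20, and with 120 and 36 next to Gm14486, none with a CTCF motif. CTCF shares were close on either side of the replicate 1 edge, while at the replicate 2 edge the share was higher inside. Of the 647 members with a replicate 1 signal of 92 to 94, 61.2% held a CTCF motif, and of the 682 regions with 89 to 91 that passed in replicate 2, 64.2% did. Along the replicate 2 edge the shares were 31.8% of 628 members with 37 to 39 and 25.3% of 605 regions with 34 to 36 that passed in replicate 1.

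The CTCF motif was the commonest of the 27 motifs in the members. Its share of 42.9% (95% Wilson interval 41.5 to 44.3, which covers counting error only) stood against 24.1% of the other shared distal regions (23.8 to 24.5), 6.08% of shared promoters and 1.57% of windows 1000 bp to either side of the members. The member share was above that of the other shared distal regions on 19 of 19 autosomes. Exact consensus matches were held by 17.2% of members and 8.19% of the others. Read the other way, members made up 18.4% of the shared distal regions whose best match had 0 mismatches, 14.8% at 1, 11.7% at 2, 7.86% at 3 and 5.30% above 3, so the share of members went down at each step away from the consensus.

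The CTCF share did not follow the signal in the same way in both libraries. Of the 4029 shared distal regions that passed the threshold in replicate 2 only, 66.8% (65.3 to 68.2) held the motif. Of the 4259 that passed in replicate 1 only, 10.9% did, below the 21.0% of regions that passed in neither. The members, with 42.9%, lay between the lists that passed in a single library. When the rule was applied to the peaks of replicate 2 alone, 8975 regions passed and 53.4% held the motif, and with replicate 1 alone 10245 passed and 24.6% did. The CTCF share of strong distal sites therefore depends on which library ranks them, and what differs between the libraries was not tested. CpG-rich regions showed no such split, at 4.95% of the regions that passed in replicate 1 only and 5.14% of those in replicate 2 only, against 17.4% of the members.

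**Figure D2:**
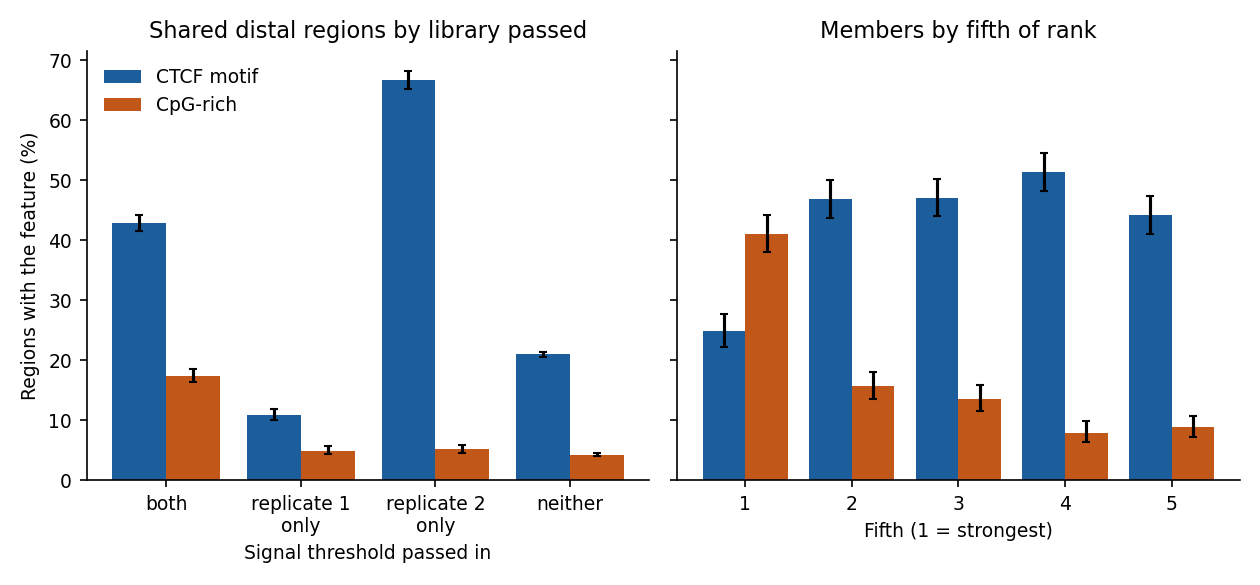
Percentage of regions with a CTCF motif (blue) and of CpG-rich regions (orange), for shared distal regions by the library whose threshold they passed (left) and for the members in 5 groups of 970 by rank, strongest first (right). Bars start at 0 and error bars are 95% Wilson intervals. The CTCF bar reaches 66.8% for replicate 2 only and 10.9% for replicate 1 only, and in the strongest group of members the CpG-rich bar (41.1%) stands above the CTCF bar (24.9%).

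Within the members the order of the classes turned over with rank. In the strongest of 5 groups of 970 members, where replicate 1 signals were 109 to 147 and replicate 2 signals 51 to 93, 41.1% were CpG-rich and 24.9% held a CTCF motif. In the next 3 groups the CTCF share was 46.9%, 47.1% and 51.4%, and in the weakest it was 44.2%, while CpG-rich members made up 15.7%, 13.6%, 7.94% and 8.87%. With thresholds of 110 and 50 in place of 92 and 37, 1043 regions passed, of which 23.3% held the CTCF motif, against 26% of the shared distal regions that did not pass. The higher CTCF share of the members is thus carried by those below the very strongest. Over all 50058 shared distal regions in 10 groups by rank, the CTCF share went up from 6.92% in the weakest group to 45.7% in the ninth, and was 42.3% in the strongest. CpG-rich regions went from 1.09% to 7.34% in the ninth group and 17.2% in the strongest, while the homeobox motif TAATTA went down at every step, from 6.10% to 1.64%.

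**Figure D3:**
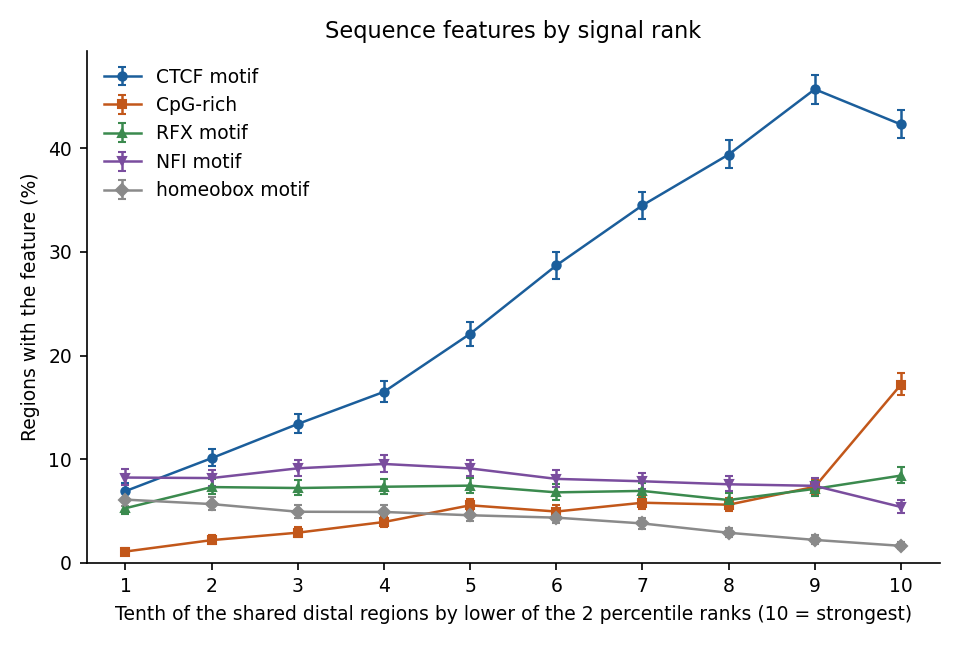
Percentage of shared distal regions with each sequence feature (y axis) in 10 groups by the lower of the 2 percentile ranks of signal (x axis, 10 is the strongest, which holds all 4850 members). Points are shares and bars 95% Wilson intervals. CTCF climbs from 6.92% to 45.7% and ends at 42.3%, CpG-rich regions jump to 17.2% in the last group, and the homeobox motif declines from 6.10% to 1.64%.

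The CTCF motif lay close to the centre of the member regions. Its centre was within 20 bp of the midpoint in 1097 of 2082 members (52.7%) and within 40 bp in 1809 (86.9%), with a median distance of 18.5 bp. In the other shared distal regions with the motif it was somewhat closer, with 63.3% within 20 bp and a median of 15.5 bp. The bins of 10 bp just left and right of the midpoint held 11.4% and 14.3% of the members' motifs, and 17.6% and 17.4% of those in the other regions. The motif was on the plus strand in 49.8% of these members, and 80 (3.84%) held more than 1 match. At the 2082 best matches 422 distinct 13-base sites occurred, and the most frequent were CCACTAGATGGCA in 57 members and CCAGCAGAGGGCA in 55. The best match lay in soft-masked repeat sequence in 113 members (5.43%, 4.53 to 6.49) and in 11.4% of the other regions with the motif (10.8 to 12).

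Neighbouring CTCF members with a single motif pointed in all combinations of directions. Of 1983 adjacent pairs on the same chromosome, 977 (49.3%) pointed the same way, 504 (25.4%) faced each other and 502 (25.3%) pointed apart. The median gap between neighbours was 542430 bp. Among the 103 pairs at most 20 kb apart the counts were 56, 7 and 40, so that 6.80% faced each other and 38.8% pointed apart. These close pairs are few and were set apart after the data were seen.

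**Figure D4:**
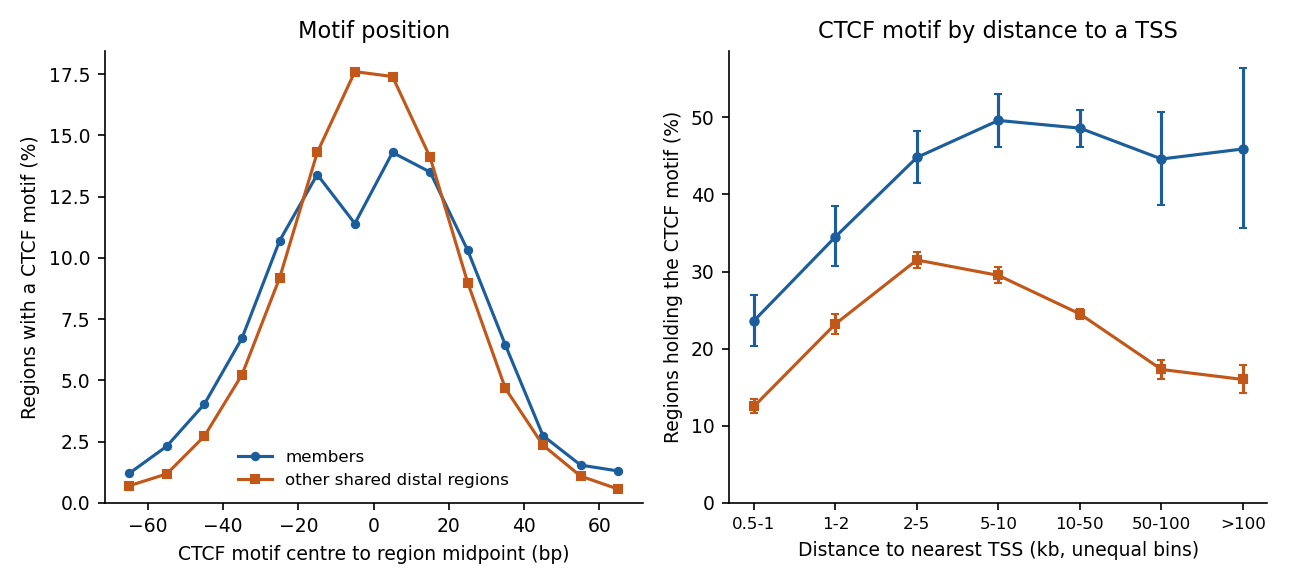
Left, position of the CTCF motif centre relative to the region midpoint (x axis, bp) as a percentage of the regions with a motif in bins of 10 bp. Right, percentage of regions with a CTCF motif by distance to the nearest TSS (x axis, kb, unequal bins), with 95% Wilson intervals. Members (blue) have a broader peak, with 11.4% and 14.3% in the bins beside 0 against 17.6% and 17.4%, and lie above the other shared distal regions (orange) in all 7 distance bins.

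The members lay nearer to a TSS than the remaining shared distal regions, but most were intergenic and fewer lay in introns. The median distance to a TSS was 6910 bp (quartiles 2040 and 18500), against 9910 bp in the other regions. Between 500 and 2000 bp from a TSS lay 24.8% of members and 19.1% of the others, and beyond 10000 bp 40.9% and 49.7%. Midpoints were intergenic in 2494 members (51.4%) and intronic in 2047 (42.2%, 40.8 to 43.6), against 43.8% and 51.1% of the others. Another 173 members (3.57%) lay in exons of noncoding transcripts, 104 (2.14%) in 3′ untranslated regions and 23 (0.474%) in 5′ untranslated regions. The excess of the CTCF motif held at every distance. It was present in 23.6% of members and 12.5% of others at 500 to 1000 bp from a TSS, in 48.6% and 24.5% at 10 to 50 kb, and in 45.9% (35.7 to 56.4) and 16.0% over 100 kb, where only 85 members lay.

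The 3 classes differed in place as well as in sequence. CTCF members had median signals of 100 in replicate 1 and 49 in replicate 2 and a median TSS distance of 8720 bp. CpG-rich members without the motif had 116 and 53 and lay at a median of 1790 bp. Members with neither feature had 106 and 46 and a median of 7750 bp. In the other shared distal regions the median TSS distances were 9020 bp with the CTCF motif, 1140 bp in the CpG-rich class and 11000 bp with neither. CpG-rich members thus lay farther from a TSS than their counterparts, and CTCF members at a similar distance. The annotation bears on the CpG-rich class most. RefSeq is a second annotation that the rule did not use. Its transcript starts lay within 500 bp of 150 of the 718 (20.9%, 18.1 to 24.0). They lay as near to 3.94% of CTCF members and 6.63% of the class with neither. Among the other shared distal regions, 312 of 1833 in the CpG-rich class had such a start (interval 15.4% to 18.8%). The shares there were 1.64% with the CTCF motif and 3.71% with neither. Such starts are thus common beside CpG-rich regions outside the members too. In all, 3.75% of the other regions had one, and 368 members (7.59%) are promoters by that annotation. Without them 4482 members remained, of which 44.6% held the CTCF motif and 15.1% were CpG-rich.

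Base composition set the members apart from the other shared distal regions and left them short of promoters. CpG-rich regions made up 846 members (17.4%, 16.4 to 18.5), 4.42% of the others and 64.5% of shared promoters. Median GC content was 52.0% in members, 48.3% in the others and 62.0% in promoters. The motifs with the largest ratio of member share to other share, among those held by at least 1% of either set, were mostly those of CpG-rich promoters. NRF1, a factor of nuclear genes for mitochondria, was found in 1.84% of members and 0.365% of others, a ratio of 5.03. CREB (TGACGTCA) had 1.03% and 0.274%, the GC box 4.76% and 1.48%, and ZNF143, a zinc finger protein of promoters, 1.07% and 0.513%. CTCF was the fifth by this ratio, at 1.78, and the only one of the 5 whose share in promoters was below that in members.

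Octamers were also counted without a motif model. Of the 32895 octamers (each counted with its reverse complement) the 6 with the largest difference in share were CCCCGCCC (5.34% of members, 1.5% of others), AGGTGGCG (5.84% and 2.13%), GCGCCACC (5.53% and 2.03%), CCCGCCCC (4.76% and 1.48%), AGGTGGCA (7.20% and 3.96%) and CTGCCACC (6.99% and 3.83%). CCCCGCCC and CCCGCCCC are forms of the GC box. AGGTGGCA and AGGTGGCG share the letters AGGTGGC of the CTCF core, and the others are parts of its reverse complement with a flanking base. In regions without the CTCF motif, ATGGCAAC, part of the RFX motif and picked after its values were seen, followed the GC boxes, at 8.35% of members and 4.24% of others.

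**Figure D5:**
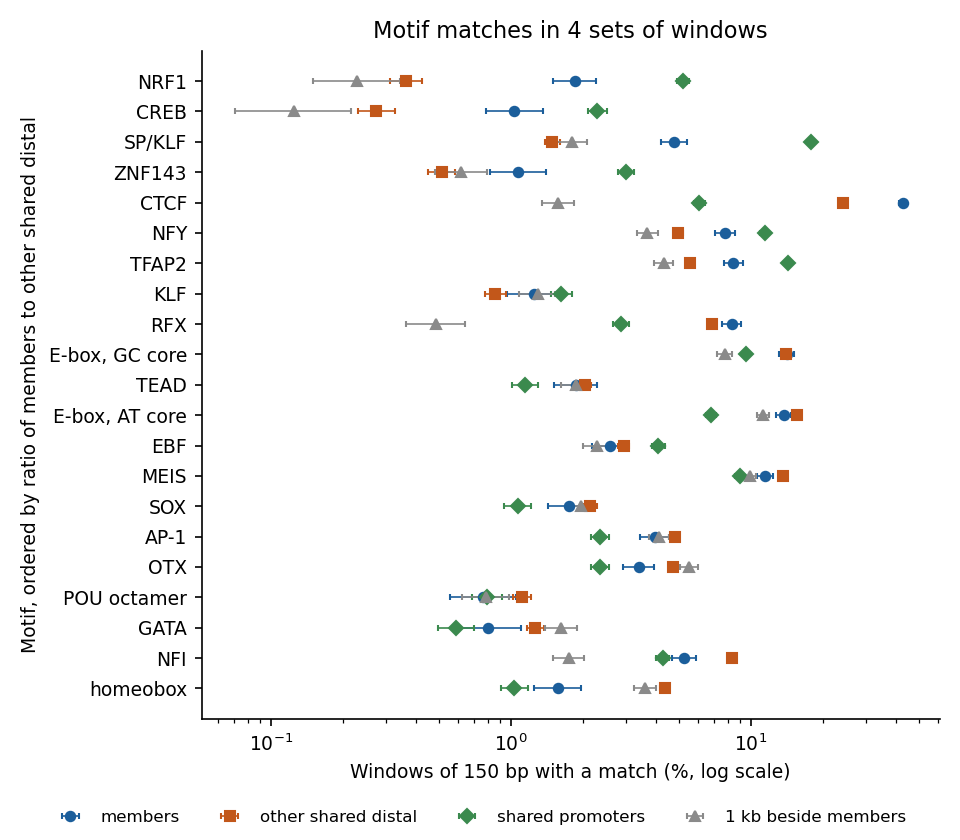
Percentage of 150 bp windows with a match (x axis, log scale) for the 21 motifs held by at least 1% of members or other shared distal regions, ordered by the ratio of these. Circles are members, squares other shared distal regions, diamonds shared promoters and triangles windows 1000 bp beside the members, with 95% Wilson intervals. CTCF stands farthest to the right in members (42.9%), and homeobox and NFI, at the bottom, have lower shares in members than in the other shared distal regions.

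The 3 motifs with the smallest ratio of member share to other share, under the same limit of 1%, were homeobox, NFI and GATA. The homeobox core TAATTA was in 1.57% (1.25 to 1.96) of members, 4.38% of others and 3.61% of the windows beside the members. NFI motifs, bound by the nuclear factor I proteins of glial and neuronal maturation, were in 5.26% (4.66 to 5.92) and 8.36%, and 1.74% of the windows beside. The GATA motif AGATAAG was in 0.804% and 1.26%. The E-box CAGCTG of bHLH factors did not separate the sets, with 14.1% and 14.0%, against 7.75% beside the members. TAATTA and AGATAAG are rich in A and T and the members are richer in GC, and the part of base composition in these shares was not tested. None of the 27 motifs was held by 830 members (17.1%).

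In the class with neither feature the RFX motif was the most frequent of the 27, with the E-box CAGCTG (16.3%) close behind. Over all classes RFX motifs occurred in 402 members (8.29%, 7.55 to 9.10), in 6.86% of the other shared distal regions, 2.86% of promoters and 0.485% of windows beside the members. In the class with neither feature the RFX motif was held by 343 of 2050 members (16.7%, 15.2 to 18.4), against 9.29% (8.97 to 9.61) of the corresponding 32459 other regions. CTCF and RFX motifs were together in only 24 members. The members with an RFX motif had median signals of 108 and 47, lay at a median of 10700 bp from a TSS, and were intronic in 48.3%. The motif was within 20 bp of the midpoint in 198 of 402 (49.3%). Also in the class with neither feature, NFY was held by 9.85% of members and 5.43% of others, and SP/KLF by 4.15% and 1.28%.

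The peak position was more often identical in both libraries at the members than elsewhere. Peaks start on a 20 bp grid, and they had the same start in 1777 members (36.6%, 35.3 to 38.0) and in 23.6% of the other shared distal regions. Within the CTCF class the shares were 41.4% and 37.5%, and in the class with neither 33.9% and 19.3%. In each library 4848 of the 4850 members lay in a hotspot, the authors' wider enriched interval. Median hotspot width was 513 bp in replicate 1 and 460 bp in replicate 2, against 330 and 242 bp for the others. The strongest q class of the hotspots, a −log10 q of 100, was reached at 99.9% and 96.0% of members in hotspots and at 71.7% and 26.9% of the others. Hotspots come from the reads that chose the members, so these values are no independent support.

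The top of the ranking was made of CpG-rich regions close to genes. Of the first 15 members 14 were CpG-rich without a CTCF motif, and the exception was the Fbrs region. The first was on chromosome 18, from 73572356 to 73572725, 503 bp from the TSS of Mex3c, an RNA-binding ubiquitin ligase, with signals of 147 and 86. Its distance was just past the limit of the rule. Of the first 15 members 6 lay within 500 bp of a RefSeq start, at 96 bp for Mex3c, 108 bp for Fbxw7, 287 bp for B930059L03Rik, 84 bp for Slc25a39, 252 bp for Zc3h4 and 374 bp for Fbrs. After the Ski and Fbxw7 regions came one in an exon of the noncoding B930059L03Rik (chr12:110591576-110591745, 142 and 87), 9791 bp from the TSS of the dynein heavy chain gene Dync1h1. An intronic region of 4931414P19Rik had 144 and 81. Regions near the mitochondrial carrier genes Slc25a39 and Slc25a25 had 144 and 80, and 140 and 88.

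The remainder of the first 15 lay near Ptma (140 and 82), Cirbp (141 and 79), a cold-inducible RNA-binding protein, Sp4 (140 and 79), a GC-box factor of neurons, Gm49482 (139 and 80), Klrb1c (142 and 78), Zc3h4 (142 and 78), Fbrs (142 and 78) and Trim8 (142 and 77). Among the 15, those farthest from a TSS were next to Klrb1c, at 14026 bp, and Cirbp, at 5984 bp. Signals within the first 15 spanned 139 to 147 and 77 to 93, close to each other beside the range of the members. The second CTCF leader, in a 5′ untranslated region of Alcam, a cell adhesion molecule of growing axons, had 136 and 72 on chromosome 16, from 52453096 to 52453285.

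Some genes had several members around them. By nearest protein-coding TSS, Myt1l had the most, 12 of its 41 shared distal regions, followed by Zfp608 with 10 of 72, Mef2c with 9 of 54, Pde4d with 8 of 56 and Ubash3b with 8 of 42. Myt1l encodes a zinc finger protein that keeps neurons from adopting other fates. Its 12 members had signals of 92 to 136 and 37 to 79, 9 were of the class with neither feature, 3 held a CTCF motif and none was CpG-rich. The strongest lay 237213 bp from the TSS in intergenic sequence (chr12:29291076-29291265, 136 and 79). The next, in an intron, held an RFX motif (chr12:29872516-29872665, 130 and 67), as did 2 other intronic members of Myt1l.

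Mef2c, a MADS-box factor of neuronal differentiation, had 7 of its 9 members in a row of 30150 bp in and beside the noncoding gene C130071C03Rik, from 83715096 to 83745245 on chromosome 13. They lay 62293 to 92253 bp from the Mef2c TSS. The strongest was at the end of the row (136 and 72, CpG-rich), and the others had 100 to 121 and 37 to 55. Of the 7, 2 held a CTCF motif and 4 were CpG-rich, 1 of them with both. Pde4d, a cAMP phosphodiesterase, had 5 CTCF members among 8, of which 7 were intronic. The Ubash3b members included the leading CTCF member in 1700063D05Rik, with a second CTCF member (94 and 53) beside it at chr9:41207916-41208065. Zfp608 had 8 of 10 in the class with neither feature, with signals of 94 to 129 and 39 to 52.

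The members were mostly scattered. The median gap to the nearest other member was 76330 bp, and 946 (19.5%) lay within 10000 bp of another. Only 99 members (2.04%) stood in the 21 rows of 4 or more with gaps of at most 10000 bp. Rows were examined after their values were seen. A row of 7 members in 6950 bp was intergenic, on chromosome 19 from 12005456 to 12012405 beside the olfactory receptor pseudogene Olfr1421-ps1. Their signals were 92 to 117 and 42 to 56, 3 were CpG-rich and none held a CTCF motif. A row of 6 spanned 10450 bp at the histone demethylase gene Kdm6b, with signals of 102 to 140 and 42 to 69 and no CTCF motif. A row of 6 near Gm25888 on chromosome 12 held 2 RFX members. Ppp2r3d had 4 members in 2770 bp with 126 to 130 and 57 to 73. For each window 8 stretches of 31 bp were searched as exact matches in the autosomes, X, Y and the mitochondrial genome. Unplaced sequences were not searched. By this search every window in these rows was mostly of single-copy sequence. Over all members 7 (0.144%) were mostly of repeated sequence and 96.7% had none of their searched stretches found elsewhere. The search does not show inexact copies or copies missing from the reference.

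Of 20780 autosomal protein-coding genes, 3557 (17.1%) were the nearest gene of at least 1 member. Of 52 midbrain transcription factor genes 25 (48.1%) were, with 40 members, 16 of them with a CTCF motif. Nearly all these genes (98.1%) were nearest to a shared distal region of any strength, against 60.0% of all genes, so the count also follows how many regions a gene has around it. Nfib had 5 members and Nfia 4, the first of which lay 607 bp from an Nfia TSS (135 and 62, neither class). Pax7, a factor of the dorsal midbrain, had 3, all with a CTCF motif and signals of 94 to 102 and 47 to 58. En1, En2, Pax5, Lmx1b, Pitx3 and Gata3 had 1 each, and Lmx1a and Meis2 had 2 each. The En1 member (94 and 42) lay 15737 bp from the TSS and the En2 member (113 and 43) 42433 bp.

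The other gene lists are given beside the same shares of all genes, 17.1% next to a member and 60.0% next to any shared distal region. Of 13 dopaminergic genes 4 (30.8%) had members and 84.6% a shared distal region. These members were 6 in all, and 5 of the 6 held a CTCF motif, against 42.9% of all members. That count rests on few regions at 4 genes. Ddc, the decarboxylase of dopamine and serotonin synthesis, had the highest (chr11:11820356-11820505, 115 and 55). Th, the rate-limiting enzyme of dopamine synthesis, had an intronic CTCF member at 95 and 48, Ret had 2 and Sox6 had 1. Of 17 pan-neuronal genes 8 (47.1%, with 94.1% next to any shared distal region) had members, led by Myt1l. Of 18 glial genes 5 (27.8%, with 83.3%) did, led by a region 5433 bp from the TSS of the myelin gene Mog (139 and 75). Of 16 genes of cohesin and insulator proteins 6 (37.5%, with 75%) had members. A CTCF-motif member lay 14027 bp from the nearest TSS of Ctcf itself (106 and 60), and another lay in an intron of Adnp (123 and 55). Of 23 cilium and RFX genes 3 (13%, with 73.9%) had members, a share near that of all genes, including Rfx7 (116 and 63), and none of their 4 members held an RFX motif. Of 14 liver genes 2 (14.3%, with 50%) did, also near it, with Apob at 199787 bp (98 and 48). A nearest gene is a position and not a target.

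The tissue label was checked at promoters, which the rule leaves out. Shared peaks lay at the promoters of 6 of 6 pan-neuronal genes and of 6 of 10 midbrain genes (Otx2, En1, En2, Pax5, Pou4f1 and Meis2). The promoters of Lmx1b, Foxa2, Nr4a2 and Gata3 had no shared peak. Markers of microglia, endothelium, forebrain and liver had 0 open promoters in these lists of 3, 3, 3 and 2 genes. Of 4 astrocyte and radial glia markers Nfia and Slc1a3 were open and Aldh1l1 and Aqp4 were not, and of 3 oligodendrocyte markers Olig2 and Mbp were open and Sox10 was not. Replicate 1 had 228440 peaks and replicate 2 had 122838, and read depth is unknown, so the lists differ in length for reasons that the files do not give.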

How the data were processed

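DNase-seq libraries of newborn midbrain (2 replicates, 1 group) were used as deposited. The authors gave peaks of 150 bp with a signal per peak and hotspots with a −log10 q value, called per library on mm10, per the labels and the deposited notes. The aligner, caller, versions and definition of the signal were not given in the sources used here, and depth is unknown. From the autosomal peaks (222935 and 119469), overlaps of at least 1 bp were merged, and midpoints were annotated with GENCODE M21. The 27 motifs were scanned on both strands of 150 bp windows of the RefSeq GRCm38.p6 sequence. Those of CTCF, RFX, NFI, NRF1, ZNF143 and REST allowed 1 or 2 mismatches. The scan and the merging were tested on simulated data. The members, classes, motifs and gene lists were chosen with earlier results of these data known. Text names the first 15 members, class leaders, edge regions, the 5 genes with most members and the first member beside each list. With 1 group and members chosen by signal, no test was made. Python 3.11.15, pandas 2.3.3 and SciPy 1.17.1 were used. Alternatives are given at the end.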

Additional observations from a re-analysis of the deposited data

How the results depend on the processing

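No paired analysis was possible because both libraries form 1 group. Counts and shares were recomputed under other settings. The CTCF share was above that of the other shared distal regions in 14 of 15 settings (thresholds of 110 and 50 were the exception), the CpG-rich share was above it in 13 of 13 and the intronic share below it in 11 of 11. Thresholds of 110 and 50 left 1043 members, 37.3% intronic, 23.3% with CTCF and 39.4% CpG-rich, and 80 and 30 gave 10139, 44.2%, 45.8% and 12.1%. A TSS distance over 1000 bp gave 45.8% CTCF and 13.7% CpG-rich, and over 2000 bp 39.8% intronic, 47.6% and 11.6%. TSSs of protein-coding genes only gave 40.7%, 40.6% and 20.1%. Without the coding exon filter 18.7% were CpG-rich. Leaving out each replicate gave 8975 to 10245 members, 42.0% to 48.2% intronic, 24.6% to 53.4% with CTCF and 10.5% to 11.9% CpG-rich. The CTCF share was 17.2% with 0 mismatches, 60.7% with 2 and 45.0% in 300 bp. The CpG-rich share was 22.6% in 150 bp and 8.33% at a CpG ratio of 0.75 and GC of 55%. Excluding RefSeq starts, a setting added after seeing the data, gave 44.6% CTCF and 15.1% CpG-rich. An overlap of at least 75 bp, a coding exon filter on any base and, added after seeing the data, leaving out regions with any stretch of 31 bp found elsewhere kept every share within its interval. The cause of these changes was not tested, apart from the mismatch and window settings, which by construction widen or narrow the match. Depth is unknown, so how far it limits the weaker library is not known. Motif matches are letters in a window and not measured binding, and whole midbrain mixes cell types.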
